A study of Homo sapiens with 6 samples.

Results

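The chromatin around 10 genes of autophagy and of the HOPS tethering complex was examined for PRMT5 and METTL3 peaks in LNCaP and PC3 cells. The genes were VPS33A, VPS11, VPS18, GABARAP, MAP1LC3B, UVRAG, WIPI1, WIPI2, SQSTM1 and ATG9A, 10 of 20037 protein-coding genes. They were chosen from earlier results of the same peak lists, so their counts are a description and carry no test. A gene was credited with every peak whose summit fell inside it or no more than 3 kb from its start or end (hg38), and with no such peak the nearest one was noted. By this rule 6 of 980 peaks were counted in the LNCaP PRMT5 list, 3 of 1661 in the PC3 PRMT5 list, 1 of 7453 in the PC3 METTL3 list and 0 of 173 in the LNCaP METTL3 list.

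Both lines are established human prostate cancer lines, LNCaP androgen-responsive and PC3 androgen-independent, and the labels name no treatment or engineered change for either. Each line gave 1 library with a METTL3 antibody, 1 with a PRMT5 antibody and 1 control that is titled IgG and whose antibody field names a secondary antibody, with 100000 cells and 16 PCR cycles per library. PRMT5 is an arginine methyltransferase and METTL3 the catalytic subunit of the N6-methyladenosine writer; in the assay the antibody tethers Tn5 transposase, which cuts the chromatin nearby. The PRMT5 and METTL3 peaks of a line share 1 control library. There is no replicate, the read depth behind each list is unknown, and a gene without a peak may have signal that was not detectable at that depth.

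In autophagy, a membrane sheet grows around cytoplasm, closes into an autophagosome and fuses with the lysosome, where its content is broken down. The class III PI3-kinase complexes, of which UVRAG is a subunit, make a lipid that the WIPI proteins bind. ATG9A is a lipid scramblase whose vesicles seed the membrane. GABARAP and MAP1LC3B belong to the ATG8 family of ubiquitin-like proteins that are joined to the membrane lipid, and SQSTM1 is a receptor that links ubiquitinated cargo to them. The HOPS complex, with VPS11, VPS18 and VPS33A among its subunits, tethers late endosomes and autophagosomes to lysosomes before fusion. Many lysosomal and autophagy genes carry an E-box, the letters CACGTG, in their promoters, which transcription factors of the MiT/TFE family bind.

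PRMT5 peaks lay at the ends of 5 of the 10 genes in LNCaP, namely VPS33A, VPS11, GABARAP, UVRAG and WIPI1. They lay at 3 of these in PC3, namely VPS33A, VPS11 and GABARAP. Over all protein-coding genes the share with such an end peak was 1.92% in LNCaP and 2.42% in PC3; because the genes were chosen on these lists, nothing is read from the distance between these figures. With summits inside the gene counted too, the members' counts in the PRMT5 lists stayed at 5 and 3, and those background shares were 3.08% and 4.59%. METTL3 summits lay at an end of 0 of the 10 genes in both lines, where 0.0749% of all genes had one in LNCaP and 2.48% in PC3. Inside or at an end they were found at 0 of 10 in LNCaP (0.389% of all genes) and at 1 of 10 in PC3 (11.6%). The remaining 5 genes, VPS18, MAP1LC3B, WIPI2, SQSTM1 and ATG9A, had no counted peak in any of the 4 lists.

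The reference promoter letters are shown for the genes whose counted peaks reach into the RefSeq promoter window, which runs from 250 bases before to 50 after an annotated start (GRCh38.p14). Matching by symbol found such a window for 7 of the 10 genes, and VPS33A, UVRAG and VPS18 had none. The stretches below end at the annotated start and are given 5′ to 3′ on the gene's strand. In the VPS11 stretch, chr11:119067568-119067817 on the plus strand, capitals mark the letters CACGTG, and in that of WIPI1, chr17:68457497-68457746 on the minus strand, capitals mark the 56 bases under the LNCaP PRMT5 peak. SNAP29 encodes a SNARE that fuses autophagosomes with lysosomes and was the other gene of a wider pathway list with a PRMT5 peak at an end. Its stretch, chr22:20858812-20859006 on the plus strand, begins 1 base beyond the start of PI4KA, which reads the other way on the minus strand, and capitals again mark CACGTG.
VPS11: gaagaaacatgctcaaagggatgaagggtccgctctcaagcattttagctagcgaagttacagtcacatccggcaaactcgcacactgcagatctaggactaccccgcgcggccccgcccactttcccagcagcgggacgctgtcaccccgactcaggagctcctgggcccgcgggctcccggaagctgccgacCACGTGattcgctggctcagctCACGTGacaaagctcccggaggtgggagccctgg
WIPI1: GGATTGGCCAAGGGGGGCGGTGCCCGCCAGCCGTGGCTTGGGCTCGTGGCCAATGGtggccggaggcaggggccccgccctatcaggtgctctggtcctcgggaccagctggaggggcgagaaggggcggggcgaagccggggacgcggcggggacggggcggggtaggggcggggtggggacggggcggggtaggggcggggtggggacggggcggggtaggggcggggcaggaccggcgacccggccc
SNAP29: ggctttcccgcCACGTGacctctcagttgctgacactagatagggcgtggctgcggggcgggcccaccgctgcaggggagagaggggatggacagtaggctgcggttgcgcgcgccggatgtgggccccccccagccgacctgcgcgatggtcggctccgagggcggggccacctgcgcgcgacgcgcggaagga

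Of the member peaks in PC3, that of the HOPS gene VPS33A had the highest fold. VPS33A (gene ID 65082, chromosome 12, positions 122229564 to 122266494) encodes the subunit that holds and assembles SNAREs. In PC3 its PRMT5 peak spanned positions 122265369 to 122266993, 1625 bp wide, with a fold over the control of 19.8 and a −log10 q of 52.1. The fold, like all folds here, is the authors' caller's own value. It ranked 14th of 1661 peaks by fold and 3rd of the 475 PC3 PRMT5 peaks at gene ends, and was wider than 99.4% of those. In LNCaP the VPS33A peak spanned positions 122265962 to 122266669, 708 bp, with a fold of 5.37 and a −log10 q of 10.5. That fold was below 6.56, the median of its list, and 17.4% of the 334 LNCaP peaks at gene ends were lower, although 94.6% of them were narrower. The summits of the lines lay 13 bp apart, at 17 bp (PC3) and 30 bp (LNCaP) beyond the higher-coordinate end of the gene. The whole LNCaP peak fell within the PC3 peak and took up 43.6% of it.

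VPS11 (gene ID 55823, chromosome 11, positions 119067818 to 119081972), a core subunit shared by HOPS and the early endosomal CORVET complex, had a PRMT5 peak just before its start in both lines. The LNCaP peak spanned positions 119067624 to 119067767, with a fold of 8.62 and a −log10 q of 9.53, and its summit lay 123 bp before the start. The PC3 peak spanned positions 119067466 to 119067825, with a fold of 6.72 and a −log10 q of 6.34, and its summit lay 103 bp before the start. By fold the first stood above 75.7% of the peaks in its list and the second above 68.6%. The summits were 20 bp apart, and the LNCaP peak of 144 bp lay wholly inside the PC3 peak of 360 bp. The letters CACGTG occurred at 2 places in the printed VPS11 stretch. The PC3 peak covered both, and the LNCaP peak covered the one at positions 119067762 to 119067767, which is at its very edge. An RNA gene without a coding product, LOC124902769, spans positions 119065262 to 119067755. Both summits, at positions 119067695 (LNCaP) and 119067715 (PC3), lie inside it and nearer to its higher-coordinate end than to the VPS11 start.

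VPS18 (gene ID 57617, chromosome 15, positions 40894450 to 40903975), also a core subunit of both complexes, had no counted peak. Its nearest PRMT5 summit in PC3 was 28.4 kb away, with a fold of 6.85, and in LNCaP 604 kb away, with a fold of 6.99. Its nearest METTL3 summits were 303 kb away in PC3 and 13.5 Mb away in LNCaP. Of the 3 HOPS genes among the members, VPS18 was thus the one without a PRMT5 peak in either line.

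**Figure D1:**
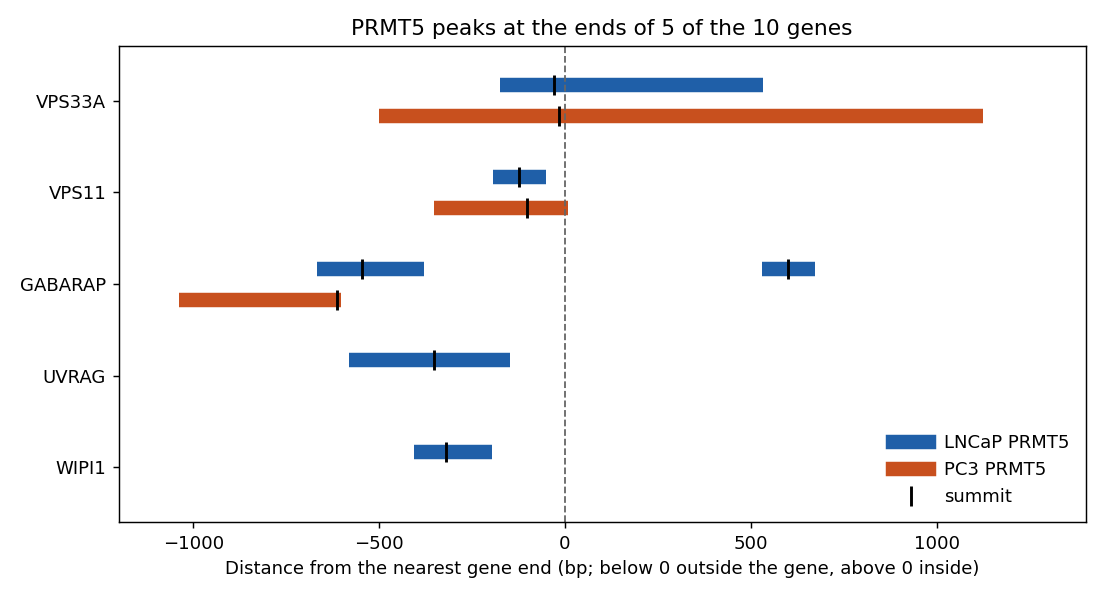
Extent of each PRMT5 peak counted at an end of VPS33A, VPS11, GABARAP, UVRAG and WIPI1, with the distance from the nearest gene end on the x axis in bp (below 0 outside the gene), bars for the peaks of LNCaP and PC3 and ticks for their summits. The summits lie 17 to 613 bp from the end, and the bars of the lines overlap at VPS33A, VPS11 and GABARAP.

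GABARAP (gene ID 11337, chromosome 17, positions 7240008 to 7242449, minus strand) was the member of the ATG8 family with peaks. In LNCaP it had a pair of PRMT5 peaks, 1 on each side of its start. The outer peak, positions 7242827 to 7243115, had a fold of 11.6 and a −log10 q of 16.5, with the summit 547 bp before the start. The inner peak, positions 7241777 to 7241919, lay inside the gene with the summit 600 bp after the start, a fold of 6.25 and a −log10 q of 4.46, the lowest −log10 q among the 9 PRMT5 peaks counted here. Neither reached the promoter window, which lies between them. In PC3 GABARAP had 1 PRMT5 peak, positions 7243050 to 7243486, with a fold of 6.92, a −log10 q of 7.44 and the summit 613 bp before the start. It overlapped the outer LNCaP peak by 66 bp and its summit was 66 bp away.

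GABARAP is a short gene in a crowded stretch, and its peaks also lie near other coding genes. The phosphatase gene CTDNEP1 lies beyond the start of GABARAP, and the span of the chromatin reader gene PHF23 overlaps its end. Both are also on the minus strand. The PC3 summit was 529 bp from the CTDNEP1 end that faces GABARAP and thus nearer to that gene. The outer LNCaP summit was 595 bp from it, against 547 bp for GABARAP. The inner LNCaP summit was 1021 bp from PHF23. Further PRMT5 summits lay between 3 and 20 kb from GABARAP, 3 in LNCaP with folds of 5.07 to 26.0 and 7 in PC3 with folds of 5.37 to 11.8. The highest, LNCaP positions 7234284 to 7235023, had its summit 5.39 kb from GABARAP and 97 bp from an end of DVL2, a gene of Wnt signalling, and ranked 11th of its list by fold. The lists cannot tell which of these genes a peak belongs to.

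MAP1LC3B (gene ID 81631, chromosome 16, positions 87392336 to 87404774), which encodes the LC3B protein widely used as an autophagosome marker, had no counted peak. Its nearest PRMT5 summits were 97.5 kb away in LNCaP and 97.4 kb away in PC3. These nearest entries overlapped each other by 127 bp, with folds of 6.14 and 6.41, and lay 9.26 and 9.12 kb from ZCCHC14. So both lines had the same nearest PRMT5 region at MAP1LC3B, but it was closer to another gene. Its nearest METTL3 summits were 188 kb away in PC3 and 2.59 Mb away in LNCaP.

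UVRAG and WIPI1 had a PRMT5 peak in the LNCaP list and none in the PC3 list. UVRAG (gene ID 7405, chromosome 11, positions 75815210 to 76144232), at 329 kb the longest of the 10, had a LNCaP PRMT5 peak at positions 75814630 to 75815062. Its fold was 8.55, its −log10 q 9.69, and its summit, at position 75814859, lay 351 bp beyond the lower-coordinate end. The noncoding gene UVRAG-DT, positions 75813514 to 75814797, reaches into the peak. The summit is nearer to an end of UVRAG-DT than to UVRAG. The nearest PC3 PRMT5 summit was 2.58 Mb from UVRAG, with a fold of 5.30. UVRAG was also the member with a METTL3 peak in it. That PC3 METTL3 peak, positions 76043167 to 76043458, lay 101 kb from the nearer end, with a fold of 5.31 and a −log10 q of 3.57, above 53.3% of its list, and it was 228 kb from the LNCaP PRMT5 summit.

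WIPI1 (gene ID 55062, chromosome 17, positions 68421281 to 68457496, minus strand), a binder of the lipid made by the PI3-kinase complexes, had a LNCaP PRMT5 peak at positions 68457691 to 68457903. Its fold was 10.1, above 84.1% of the list, its −log10 q was 11.1, and its summit lay 320 bp before the start. The nearest PC3 PRMT5 summit was 395 kb away, with a fold of 5.07. The span that the gene table gives for PRKAR1A, which encodes a regulatory subunit of protein kinase A, covers WIPI1 and this peak. The letters CACGTG were not in the WIPI1 window. Whether the presence in LNCaP and absence in PC3 at UVRAG and WIPI1 is a difference between the lines was not tested, since each line has 1 library of unknown depth.

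The paralog WIPI2 (gene ID 26100, chromosome 7, positions 5190233 to 5233855) had no counted peak, and its nearest PRMT5 summits were 415 kb away in LNCaP and 295 kb away in PC3. Its nearest PC3 METTL3 summit, 13.6 kb away with a fold of 4.10 and a −log10 q of 1.63, was the closest entry of that list to any of the 10 genes except the one inside UVRAG. ATG9A (gene ID 79065, chromosome 2, positions 219219380 to 219229636) had its nearest PRMT5 summits 41.3 kb away in PC3, inside CNPPD1, and 4.11 Mb away in LNCaP. SQSTM1 (gene ID 8878, chromosome 5, positions 179806393 to 179838078) had its nearest PRMT5 summits 1.45 Mb away in LNCaP and 1.22 Mb away in PC3. Its nearest LNCaP METTL3 summit, inside MRNIP, lay 12.3 kb away with a fold of 5.93. Together with the summit near WIPI2 and those around GABARAP, it made up the uncounted summits within 20 kb outside the 10 genes. The summits just inside and just outside the 3 kb limit thus both lay around GABARAP, at 613 bp in PC3 and 3.06 kb in LNCaP. The first was nearer to an end of CTDNEP1 and the second nearer to an end of PHF23.

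**Figure D2:**
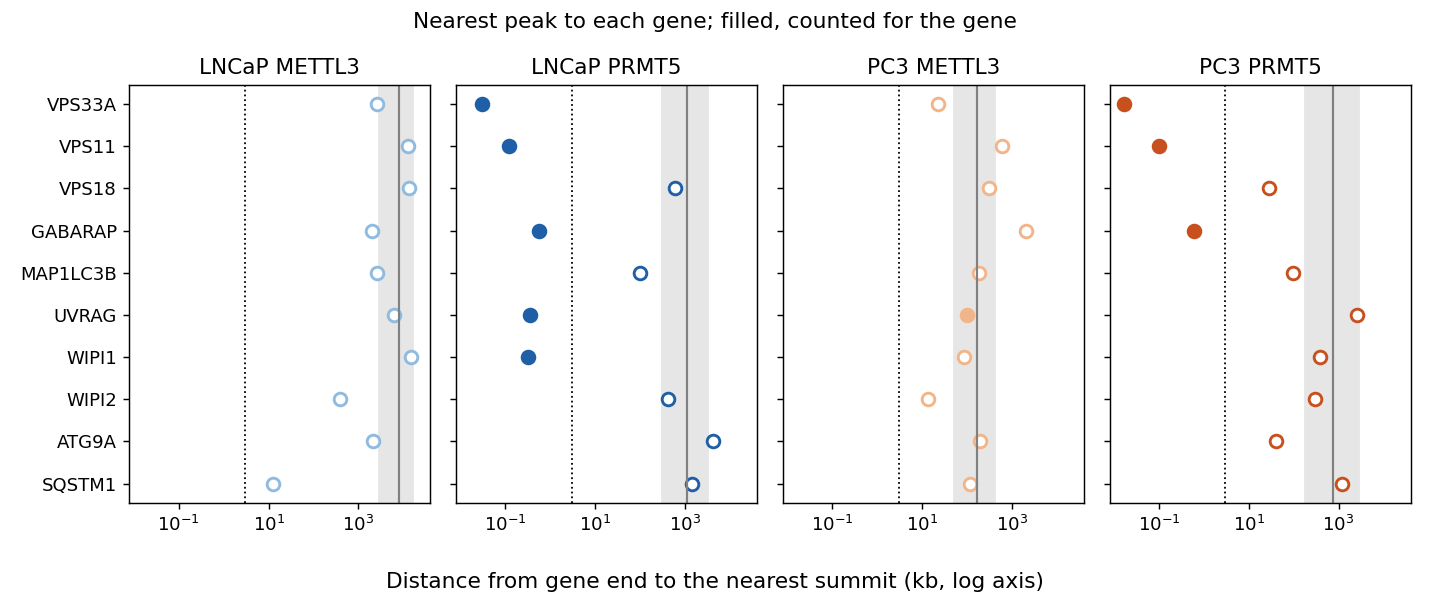
Distance in kb (log axis) from an end of each of the 10 genes to the nearest summit in each list; filled points were counted for the gene, the dotted line is 3 kb, the grey line the median over protein-coding genes and the band their quartiles. In the PRMT5 panels 5 genes in LNCaP and 3 in PC3 sit left of 3 kb, and no METTL3 point does; the filled PC3 METTL3 point is the summit inside UVRAG, drawn at its distance from the nearer end.

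Apart from the summit inside UVRAG, METTL3 summits lay from 12.3 kb to 14.5 Mb from the nearest end of a member. The median distance from an end of a protein-coding gene to the nearest summit was 8.08 Mb in the LNCaP METTL3 list, over the 18586 genes on chromosomes with a peak, and 164 kb in the PC3 METTL3 list. Of the 10 genes, 7 were nearer than the first median and 5 nearer than the second. The PRMT5 peak at VPS33A was 59.3 kb from the nearest METTL3 summit of the same line in PC3, and that at VPS11 was 621 kb from it. No counted PRMT5 peak overlapped a METTL3 peak.

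The 9 PRMT5 peaks at member ends had folds from 5.37 to 19.8 and widths from 143 to 1625 bp. The summit lay outside the gene in 8 of them and inside in 1. At VPS11, GABARAP and WIPI1, whose strand is annotated, every one of these summits lay nearer to the start than to the end of the gene. Neither position was counted over all PRMT5 end peaks, so they are not read as traits of these genes. Within 700 bp of a gene end, a distance set after the values were seen, lay 67.4% of all LNCaP PRMT5 summits counted at gene ends and 44.8% of those of PC3. The median distance of such end summits was 298 bp in LNCaP and 809 bp in PC3. Within LNCaP the folds of the member peaks ran in the order GABARAP (outer), WIPI1, VPS11, UVRAG, GABARAP (inner) and VPS33A, around the 7.28 median of end peaks. Within PC3 the order was VPS33A, GABARAP and VPS11, all above the 5.92 median of end peaks. VPS33A stood last in one list and first in the other. Folds of different lists depend on depth and on the control and were not compared by size.

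**Figure D3:**
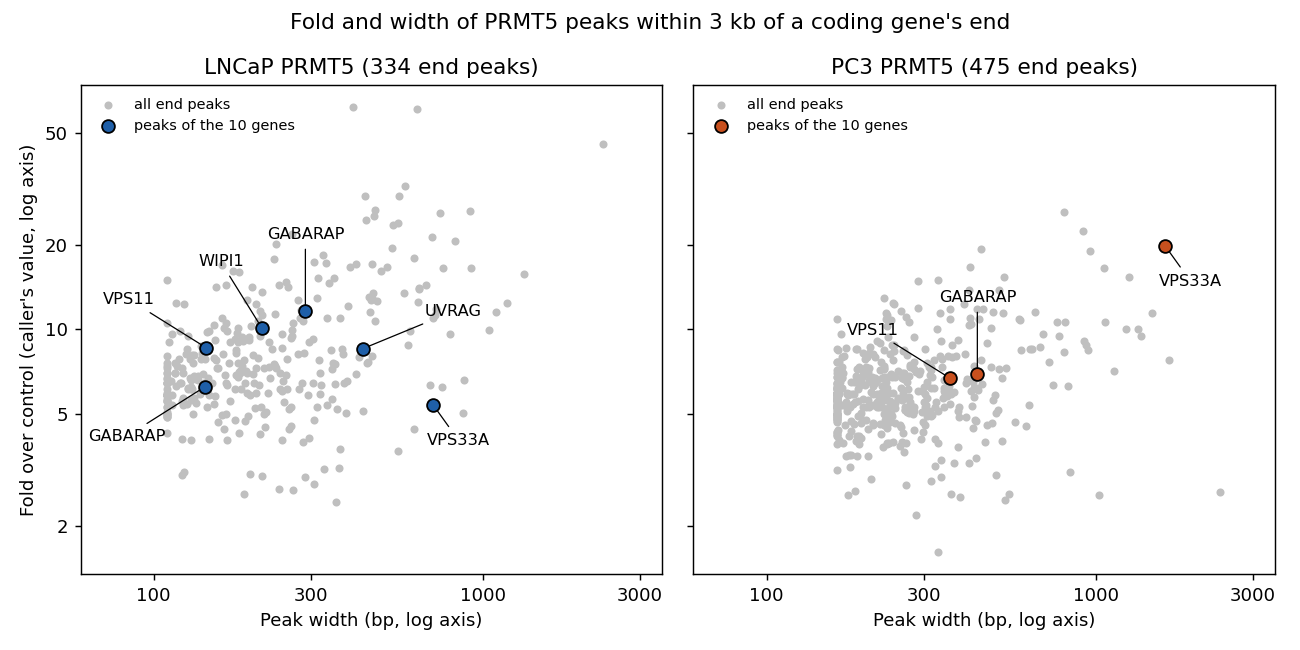
Fold over the control (caller's value, log axis) against peak width in bp (log axis) for PRMT5 peaks within 3 kb of a protein-coding gene's end, 334 in LNCaP and 475 in PC3, with the peaks of the 10 genes coloured. VPS33A is among the widest in both panels, with a fold of 5.37 in LNCaP and 19.8 in PC3.

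The lines shared a PRMT5 position at 3 members. Peaks of the lines overlapped by at least 1 bp at VPS33A (708 bp), VPS11 (144 bp) and GABARAP (66 bp), and of all protein-coding genes 0.903% had overlapping end peaks. When the overlap had to take up at least 50% of both peaks, the count was 0 of 10. At VPS33A and VPS11 the overlap was the whole LNCaP peak but 43.6% and 40% of the wider PC3 peak. At GABARAP the peaks were offset, and the overlap made up 22.8% of the LNCaP peak and 15.1% of the PC3 peak. The summits nevertheless lay 13 to 66 bp apart.

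To place the 10 genes in their pathway, 77 genes in 9 roles, the members included, were listed from textbook knowledge, with earlier results of these lists known. LNCaP PRMT5 peaks lay at ends of 5 of the 77, all of them members, and PC3 PRMT5 peaks at 4, the 3 members and SNAP29. Without the members, LNCaP PRMT5 end peaks were found at 0 of 67 genes, which allows a share of up to 4.48%, and those of PC3 at 1 of 67, 1.49% (95% exact binomial interval 0.0378 to 8.04). Over all protein-coding genes the shares were 1.92% and 2.42%. The members taken out had been chosen on these same lists, which lowers what is left. Nothing is therefore read from setting the remaining counts beside these shares. No METTL3 summit lay at an end of any of the 77.

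By role, and with a peak in either PRMT5 list counted, which 3.38% of all protein-coding genes had at an end, PRMT5 end peaks were found at 2 of 10 tethers of the HOPS, CORVET and CHEVI complexes (VPS11 and VPS33A), 1 of 7 genes of the ATG8 family, 1 of 8 genes of the class III PI3-kinase complexes, 1 of 11 genes of phagophore growth and 1 of 9 genes of the fusion machinery. None lay at the 5 genes of the initiating ULK complex, the 11 genes of ATG8 conjugation, the 12 cargo receptors or the 4 MiT/TFE factor genes TFEB, TFE3, TFEC and MITF. The SNAP29 peak, chromosome 22, positions 20858797 to 20858960, had a fold of 8.53 and a −log10 q of 9.06. Its summit lay 111 bp before the start of SNAP29 and 85 bp beyond PI4KA, a lipid kinase gene that reads the other way.

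**Figure D4:**
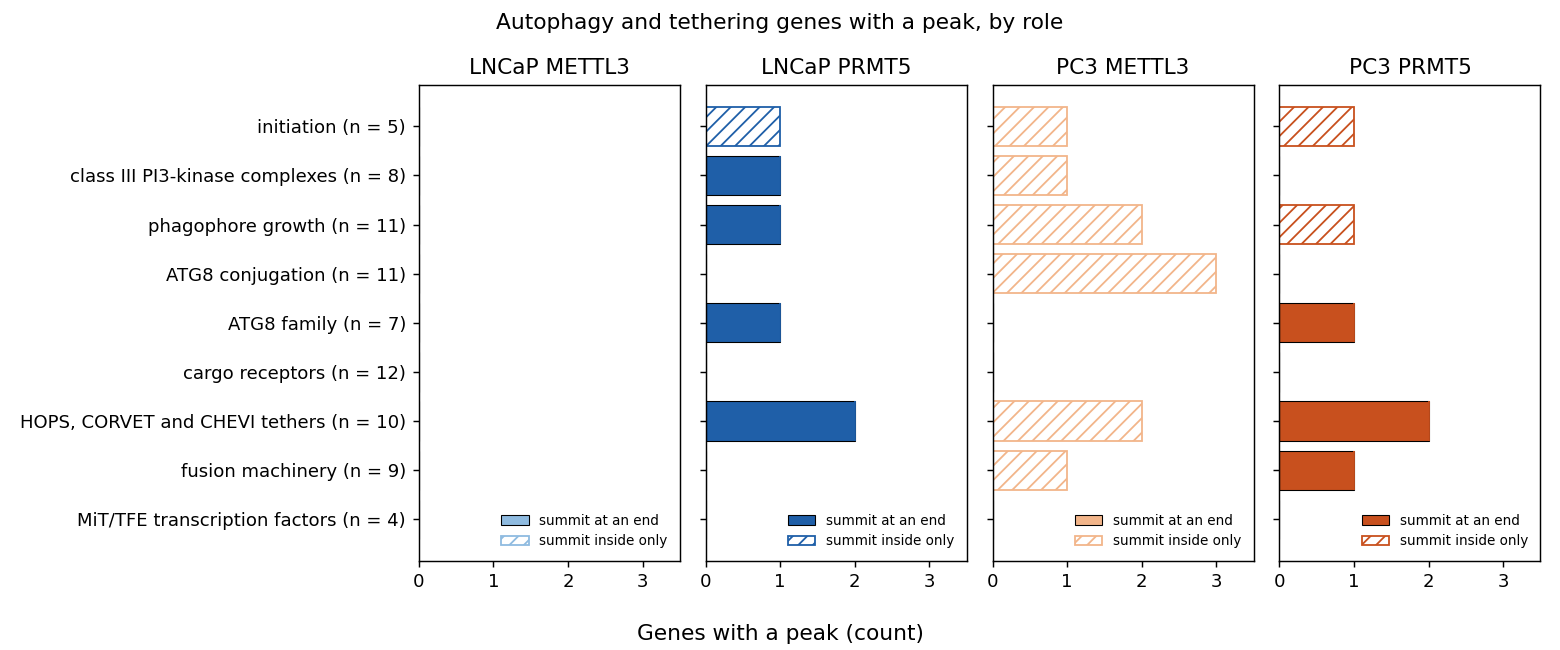
Number of genes (x axis) in each of the 9 roles, whose sizes stand beside their names, with a summit at a gene end (solid) or inside only (hatched) in each of the 4 lists. Solid bars occur in the PRMT5 panels alone and reach 2 at the tethers, and the PC3 METTL3 panel holds hatched bars, up to 3 at ATG8 conjugation.

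Some genes of the list held summits inside and not at an end. ULK1, the kinase that starts autophagy, had a peak at the same place in 3 lists, inside the gene and 4.27 to 4.39 kb from its end. Its folds were 14.4 for LNCaP PRMT5 (chromosome 12, positions 131918700 to 131918965), 8.43 for PC3 PRMT5 and 4.16 for PC3 METTL3. The PRMT5 peaks overlapped by 266 bp, and the METTL3 peak overlapped the PC3 PRMT5 peak by 287 bp. How many of all genes held a peak at the same place in 3 lists was not counted. In the PC3 METTL3 list 2.48% of all protein-coding genes had a summit at an end and 11.6% at an end or inside. Summits inside only were thus the commoner kind in that list as a whole. It had a summit at an end or inside for 10 of the 77 genes, 13.0%, and at all 10 the summit lay inside and not at an end. They were ULK1, UVRAG, VMP1, ZFYVE1, ATG3, ATG7, ATG10, VPS8, TGFBRAP1 and EPG5, with the highest fold at ATG7 (7.43), the enzyme that activates the ATG8 proteins. Those 10 genes had a median length of 151 kb, and the 67 without a summit one of 33.9 kb; the part of gene length in which genes held a summit was not tested. VMP1, a lipid scramblase of the endoplasmic reticulum, also held a pair of PC3 PRMT5 peaks, with folds of 7.46 and 5.01. Without the members, PRMT5 summits at an end or inside were found at 1 of 67 genes in LNCaP (1.49%) and 3 of 67 in PC3 (4.48%). Over all protein-coding genes those shares were 3.08% and 4.59%.

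The E-box letters were searched in the promoter windows, where CACGTG reads the same on both strands and the longer TCACGTG, which contains it, was searched on both. CACGTG was in a window of 10.9% of the 15843 protein-coding genes with one (8.34% of their 22199 windows), and TCACGTG in 5.83%. Of the 7 members with a window, VPS11 held both, and WIPI1, WIPI2, ATG9A, MAP1LC3B, GABARAP and SQSTM1 held neither. In the pathway list 9 of 66 genes with a window held CACGTG, 13.6%. Of these 9, VPS11 and SNAP29 carried a PRMT5 end peak that covered the letters, and the other 7 (ATG14, ATG3, BNIP3, NRBF2, TGFBRAP1, VPS16 and VPS8) had none at an end. Among genes with a PRMT5 end peak, 155 of 323 with a window held CACGTG in LNCaP, 48.0%, and 142 of 379 in PC3, 37.5%. For TCACGTG those shares were 41.8% and 32.7%. The members with a PRMT5 peak at an end and a window, VPS11, WIPI1 and GABARAP, thus held the letters in 1 gene of 3, too few to set beside these shares. A match is a run of letters and not a measured binding site.

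**Figure D5:**
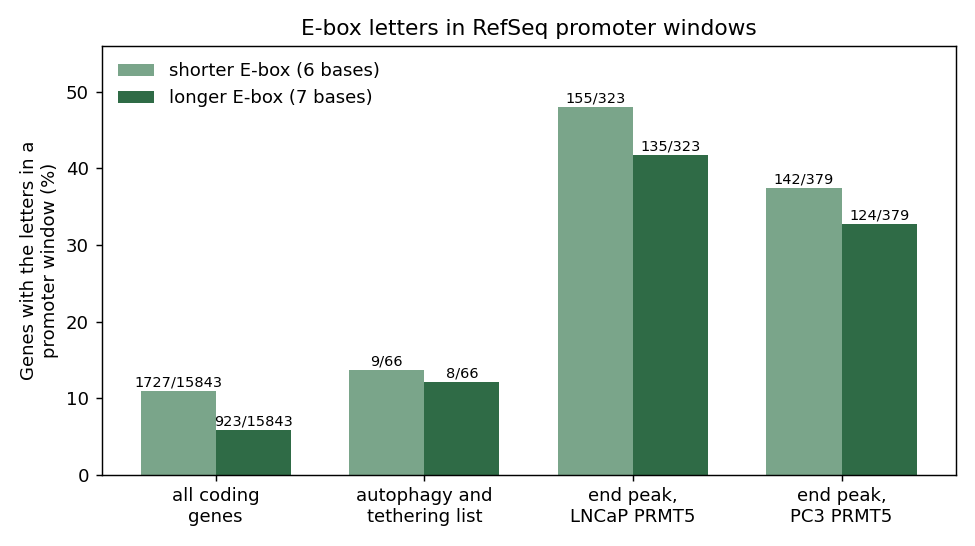
Percent of genes (y axis) whose RefSeq promoter window holds the shorter or the longer E-box letters, for all protein-coding genes, the 77-gene pathway list and genes with a PRMT5 peak at an end in each line; fractions above the bars give genes with the letters over genes with a window. The pathway list stands at 9 of 66 for the shorter letters, against 155 of 323 and 142 of 379 for genes with PRMT5 end peaks.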

How the data were processed

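Peak lists of 4 libraries were used; the 2 controls entered only through the calls. The build was hg38, and the notes list bcl2fastq 2.17 and Trimmomatic 0.33, besides Bowtie 1.1.1, MACS2 2.1.0 and also ChIPseeker, per the submitters' processing notes. How duplicates and Tn5 offsets were treated, and all settings, are not given in the sources used. Peaks were called per library, per the peak names in the files. The deposited fold (a ratio of the summit's signal to that expected from the control), the deposited −log10 p and −log10 q values and the deposited score, 10 times the −log10 q, are the authors' caller's values and only describe and rank peaks within a list.

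Only peaks of chromosomes 1 to 22, X and Y were used. Gene positions, starts, strands and promoter letters came from RefSeq (GRCh38.p14, whose primary chromosomes match hg38). Distances run from the summit to either gene end. No test was made, with 1 library per group. Intervals are exact (Clopper-Pearson) and cover counting error only, and limits for a count of 0 use 3 counts. Of 228 summits planted at known places of 77 genes, all 228 were placed correctly. The members, the pathway list and the rule for named genes (all members, genes sharing a counted peak, list genes with a peak at an end and the MiT/TFE genes) were chosen with earlier results of these data known; list genes with a summit inside were named after their values were seen. Alternatives were other windows, stricter peaks and other overlap rules. Python 3.11.15, pandas 2.3.3 and scipy 1.17.1 were used.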

Additional observations from a re-analysis of the deposited data

How the results depend on the processing

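Of 75 alternative values, 72 stayed within 1.5 times the reported count, and the E-box count of members had no alternative. Many of the 72 could not move. The 9 PRMT5 peaks at member ends had folds of at least 5.37, −log10 q of at least 4.46 and summits within 613 bp. The 1 kb window and the stricter peak settings thus could not change the members' PRMT5 counts, nor could stricter peaks lower a count of 0. The number of members with a PRMT5 peak at an end was 5 in LNCaP under windows of 1, 5 and 10 kb. It stayed 5 with a −log10 q of at least 3 and with a fold of at least 5. It was also 5 with any base of the peak in the window, with annotated starts where given and with the nearest protein-coding gene only. In PC3 the number was 3 under these settings except the last, where it was 2, as the GABARAP peak lies nearer to CTDNEP1. Noncoding genes did not enter that last setting, although ends of UVRAG-DT and LOC124902769 lie nearer to the summits at UVRAG and VPS11. Pathway genes with a PC3 METTL3 summit at an end numbered 0 at 3 kb, 3 with a window of 5 kb and 5 with one of 10 kb, by construction a wider search. Members whose PRMT5 peaks overlap between the lines numbered 3 at 1 bp and 0 with an overlap of at least 50% of each peak required. No paired analysis was possible because each group has 1 library and no result comes from a test. Depth limits what an absent peak can show, and peaks in crowded stretches cannot be assigned to 1 gene.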
